A study of Bubalus bubalis with 12 samples.

Results

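The enzymes of the urea cycle and of glutamine and glutamate turnover were examined in the ruminal wall of 12 Italian Mediterranean dairy buffaloes (Bubalus bubalis). The 9 genes were CPS1, OTC, ASS1, ASL, ARG1, ARG2, NAGS, GLUL and GLUD1, taken by gene name from a table of 34037 genes, and each name matched 1 row. The 6 control animals (Control) received a total mixed ration (TMR), and the 6 treated animals (Treated) received a TMR in which 30% of the diet was fresh green feed, a ryegrass forage. Per the study's methods, all animals were adult females in milk on 1 commercial farm, were assigned to the diets at random, and were fed rations of equal nitrogen and energy content with a larger forage share in Treated. Each library came from total RNA of a frozen piece of the ruminal wall of 1 animal, with no separation of cell types. In such samples fewer cells of a type and less RNA per cell cannot be told apart.

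The urea cycle converts toxic ammonia into urea. It runs completely in the hepatocytes of the liver, where NAGS makes the activator of carbamoyl phosphate synthetase (CPS1), ornithine transcarbamylase (OTC) forms citrulline in the mitochondrion, ASS1 and ASL turn citrulline into arginine in the cytosol, and arginase 1 (ARG1) releases urea and ornithine. Many other tissues carry only some of the steps, together with the mitochondrial arginase 2 (ARG2). In ruminants the ruminal wall meets ammonia from microbial fermentation and passes urea from blood to the rumen, and it can also bind ammonia through glutamine synthetase (GLUL) and glutamate dehydrogenase (GLUD1), the latter acting in either direction.

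The enzymes lay at very different levels. ARG1, GLUD1, ARG2, GLUL and ASL had 122 reads or more in every animal, whereas NAGS, CPS1 and OTC were at or near 0 and ASS1 lay between. Levels were given as FPKM, fragments scaled to gene length and library depth, and read numbers were recovered from the steps between FPKM values. The libraries held 10531541 to 12948372 counted fragments per animal, with medians of 12414349 in Control and 12031597.5 in Treated. The summed FPKM of squamous epithelium markers was 3297 to 5051 in Control and 3457 to 5842 in Treated, led by the basal keratin KRT5 at a mean of 1493 FPKM. The smooth muscle sum was far lower, at 28.1 to 48.4 in Control (median 35.8) and 15.6 to 40.2 in Treated (median 24.6). The endothelium sum was 11.01 to 37.1 in Control (median 22.2) and 7.18 to 39.5 in Treated (median 20.0). The fibroblast sum was 47.2 to 284 in Control (median 107.9) and 20.3 to 187 in Treated (median 96.5). The granulocyte list had a larger sum than the squamous list, with medians of 7030 in Control and 5718 in Treated beside 4431 and 4720. Nearly all of it was S100A8 (mean 4759 FPKM) and S100A9 (1986 FPKM), which squamous epithelium also makes, while CXCR2 was at 2.67, CSF3R at 0.569 and MPO at 0 FPKM. The macrophage sum was 12.3 to 24.98 in Control and 10.9 to 30.1 in Treated. Myeloid cells can carry arginases, and their part in the arginase levels was not tested.

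The mitochondrial entry steps of the cycle were hardly detected. OTC (gene ID 102404176) had 0 reads in all 12 animals, and a count of 0 allowed up to 3 reads, or 0.232 to 0.285 CPM (counts scaled to library depth) depending on the animal. CPS1 (102415970), which fixes ammonia into carbamoyl phosphate, had 8 reads in all. Of these, 2 were in Treated replicate 3 and 6 in Treated replicate 4, and the other 10 animals had 0 reads. In CPS1 3 reads correspond to 0.0410 to 0.0504 FPKM, so only Treated replicate 4 stood above that limit, at 0.0880 FPKM. NAGS (102414047) had 13 reads in all, 0 to 4 per animal, and was above 0 in 7 of 12 animals, 3 Control and 4 Treated. For NAGS 3 reads correspond to 0.0695 to 0.0854 FPKM, and only Control replicate 3, with 4 reads, passed that limit. No fold change is given for these 3 genes, which lay at or under 3 reads in nearly all animals, and a difference between diets was not detectable at this depth. These limits cover counting error only.

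**Figure D1:**
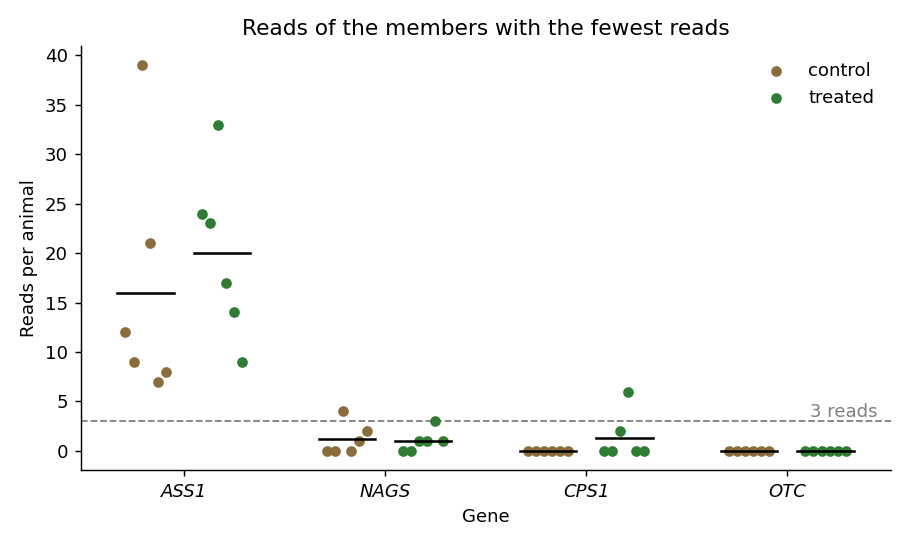
Reads per animal of ASS1, NAGS, CPS1 and OTC, the 4 enzymes with the fewest reads, in Control and Treated (points: animals, black bars: group means, dashed line: 3 reads). ASS1 lies at 7 to 39 reads in every animal, while NAGS reaches at most 4, CPS1 has reads in 2 Treated animals and OTC in none.

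The markers of hepatocytes, which run the whole cycle in liver, were low in the same libraries. Their summed FPKM was 0.143 to 1.82 in Control and 0 to 0.479 in Treated. Albumin (ALB) had at most 1 read in an animal, and APOB and HPX had 0 reads in all 12 animals, and 4 of the 7 markers found in the table were at or under 3 reads in every animal.

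The cytosolic steps that make arginine differed widely from each other. ASS1 (102389257), which joins citrulline and aspartate, was read in all 12 animals, at 7 to 39 reads. In Control its lowest, median and highest values were 0.349, 0.525 and 1.84 FPKM, and in Treated 0.433, 1.02 and 1.68 FPKM. The group means were 0.786 ± 0.567 in Control and 1.02 ± 0.438 in Treated (SD, n = 6 each), and the ranges overlapped almost fully. The mean log2 values differed by 0.49, a fold of 1.4 for Treated over Control, with p = 0.301 in a two-sided exact permutation test. ASS1 failed the filter on low values, which asked that reads scaled between libraries by TMM pass the threshold of the study in at least 1 animal: its highest scaled value was 37.1 reads, in the library with 39.

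ASL (102411570), which splits argininosuccinate into arginine and fumarate, was clearly above ASS1. It ran from 8.09 to 14.7 FPKM in Control around a median of 11.1, and from 10.8 to 14.3 FPKM in Treated around 13.1. The means were 11.5 ± 2.47 and 12.7 ± 1.56 FPKM (SD, n = 6 each), on 162 to 351 reads per animal. Every Treated animal lay within the Control range. Within animals ASL was 15.0-fold higher than ASS1 by the geometric mean of the ratio, and higher in 12 of 12 animals.

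The arginases were both present. ARG1 (102411372), the cytosolic isoenzyme that carries the last step in liver, had the highest level of the 9 genes and stood at percentile 92.5 of the mean levels of all genes tested. Control animals ran from 40.9 to 75.5 FPKM with a median of 59.1, and Treated animals from 43.5 to 97.4 FPKM with a median of 58.8. The means were 58.3 ± 15.0 and 63.1 ± 21.5 FPKM (SD, n = 6 each), on 1639 to 4176 reads. This amounted to 0.0138% to 0.0328% of the counted fragments of an animal. The animals were not evenly spread: Control replicates 1 and 2 lay at 42.6 and 40.9 FPKM and Treated replicates 1, 2 and 3 at 43.5, 46.6 and 46.0 FPKM, whereas the highest Control animals were at 75.5 and 72.6 and the highest Treated animal, replicate 6, at 97.4 FPKM.

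ARG2 (102406467), the mitochondrial isoenzyme, was lower and more variable. It ran from 7.97 to 24.7 FPKM in Control with a median of 10.7, and from 7.18 to 28.6 FPKM in Treated with a median of 14.3. The means were 14.4 ± 7.87 and 15.6 ± 8.12 FPKM (SD, n = 6 each), on 122 to 514 reads. The highest animal was 3.98-fold above the lowest, and each diet group held animals from the low and the high end. ARG1 exceeded ARG2 in all animals, by 2.19-fold in Treated replicate 2 to 8.90-fold in Treated replicate 5, with a median of 4.77.

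The enzymes that bind or release ammonia at glutamate were moderately high. GLUD1 (102392893) ran from 22.7 to 26.4 FPKM in Control with a median of 24.4, and from 22.5 to 25.3 FPKM in Treated with a median of 24.4. The means were 24.4 ± 1.59 and 24.1 ± 1.28 FPKM (SD, n = 6 each), on 840 to 1002 reads, and the groups overlapped over nearly their whole range. GLUL (102414633) ran from 10.4 to 17.6 FPKM in Control and from 10.6 to 19.2 FPKM in Treated, with a median of 14.3 in each. Its means were 14.4 ± 2.86 and 15.0 ± 3.22 FPKM (SD, n = 6 each), on 360 to 651 reads. GLUL was below GLUD1 in every animal, at 0.457 to 0.816 of its level with a median of 0.594.

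**Figure D2:**
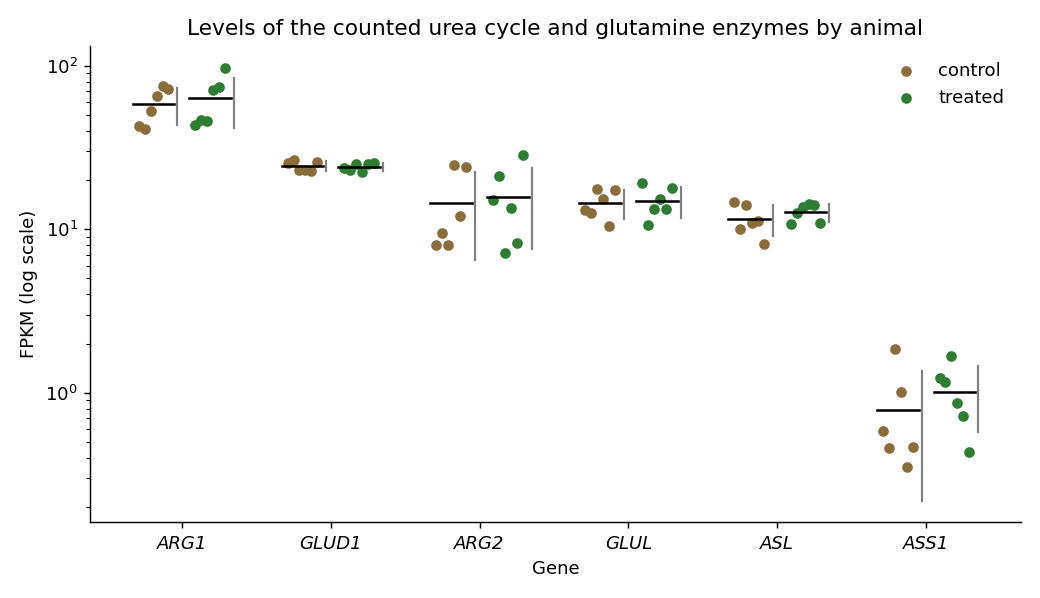
FPKM on a log axis of the 6 enzymes counted in every animal, by diet group (points: animals, black bars: group means, grey lines: mean ± SD). ARG1 is highest and ASS1 lowest, GLUD1 stays between 22.5 and 26.4 FPKM, and the Control and Treated animals overlap in every gene.

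The order of the 6 levels was tested within animals by two-sided exact sign-flip permutation tests of the log2 ratio, adjusted over the 5 neighbouring pairs (Benjamini-Hochberg, n = 12). The pairs were chosen as neighbours by mean FPKM over these same animals, and the adjustment does not cover that choice. The test covers only how steady the FPKM ratio was over animals. An error of FPKM that a gene carries in every animal would not be seen by it. ARG1 was 2.41-fold above GLUD1, in 12 of 12 animals, with exact p = 0.000488, the smallest this test can give, and adjusted p = 0.00122. GLUD1 was 1.82-fold above ARG2, in 10 of 12 animals (exact p = 0.00439, adjusted p = 0.00732). ARG2 and GLUL could not be ordered: ARG2 was 0.926 of GLUL on the geometric mean and higher in 5 of 12 animals (exact p = 0.586, adjusted p = 0.586). GLUL was 1.21-fold above ASL, in 7 of 12 animals, which did not pass the threshold either (exact p = 0.0557, adjusted p = 0.0696). The step from ASL down to ASS1 passed in 12 of 12 animals (exact p = 0.000488, adjusted p = 0.00122).

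The question of the design was whether green feed shifted these levels. Of the 5 enzymes that passed the filter, 0 were called by limma on log2(FPKM + 0.01) at the unadjusted threshold of 0.05 that the study used, and 0 after Benjamini-Hochberg adjustment. Over all 12642 genes tested, 157 were called at that unadjusted threshold, or 1.24%, and 0 after adjustment. That share is below the 0.05 that the threshold calls on average when no gene differs. The 157 were 100 genes higher in Treated (0.791%) and 57 lower (0.451%). This balance turned to 80 and 98 without Treated replicate 4 and to 95 and 99 without Treated replicate 5. With limma voom on the recovered reads the counts at the unadjusted threshold were 0 enzymes and 144 genes. The adjusted p was 0.99965 for each enzyme, and the groups overlapped for each of them, as for all but 0.0554% of the genes tested.

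The log2 fold change (Treated minus Control) of ASL was 0.16 (SE 0.15, 95% interval -0.16 to 0.49, exact permutation p = 0.316). That of ARG1 was 0.09 with a 95% interval of -0.39 to 0.57 (exact permutation p = 0.727), and that of ARG2 was 0.13 with -0.69 to 0.95 (exact permutation p = 0.758). The interval of ARG2 was the widest of the 5. With a smooth muscle and fibroblast score as covariate the value of ARG1 was 0.30 (95% interval -0.16 to 0.76). GLUL had a log2 fold change of 0.05 with a 95% interval of -0.32 to 0.42 (exact permutation p = 0.779). GLUD1 had the narrowest interval, -0.20 to 0.17 around -0.02 (exact permutation p = 0.652). The median log2 fold change of the 5 enzymes was 0.09, beside 0.0053 over all genes tested, and 4 of 5 values were above 0, beside 6480 of 12642.

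**Figure D3:**
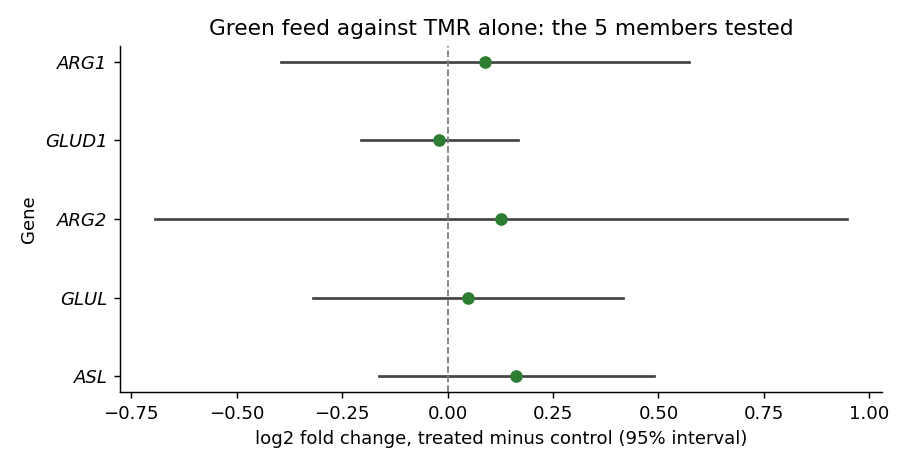
Log2 fold change of FPKM (Treated minus Control, horizontal axis) of the 5 enzymes that passed the filter, with 95% intervals from limma. Each interval includes 0, and it is widest for ARG2 (-0.69 to 0.95) and narrowest for GLUD1 (-0.20 to 0.17).

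Ratios of linked enzymes within an animal do not depend on library depth, and 3 were compared between diets. The log2 ratio of ASS1 to ASL, which catalyse consecutive steps, was -4.07 ± 0.77 in Control and -3.75 ± 0.66 in Treated (SD, n = 6 each). The difference of 0.33 gave exact permutation p = 0.431 and adjusted p = 0.918 over the 3 ratios. In linear terms ASS1 was 0.0321 to 0.132 of ASL. The log2 ratio of ARG1 to ARG2 was 2.15 ± 0.55 in Control and 2.11 ± 0.76 in Treated, with exact permutation p = 0.918 (adjusted p = 0.918). That of GLUL to GLUD1 was -0.78 ± 0.31 in Control and -0.72 ± 0.32 in Treated, with exact permutation p = 0.680 (adjusted p = 0.918). The spread between animals of a diet exceeded the difference between diets in each ratio.

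**Figure D4:**
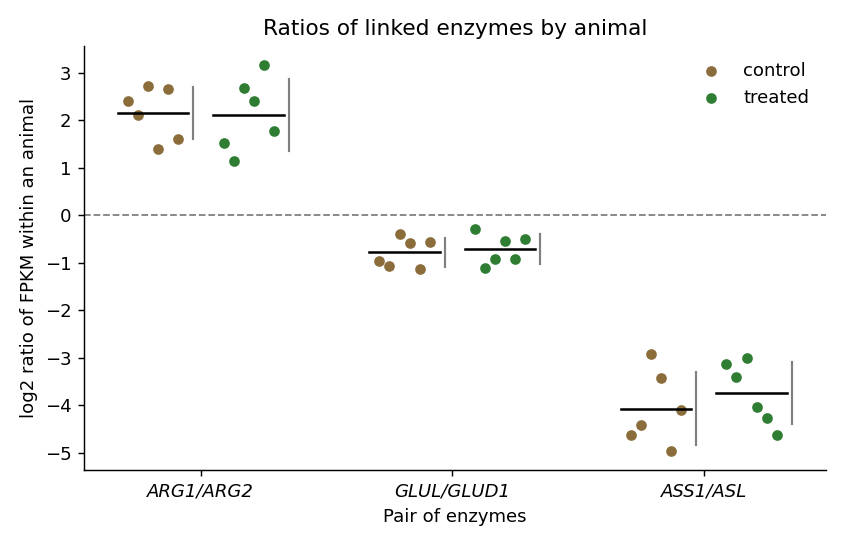
Log2 ratio of FPKM within an animal for ARG1 to ARG2, GLUL to GLUD1 and ASS1 to ASL, by diet group (points: animals, black bars: group means, grey lines: mean ± SD, dashed line: equal levels). All ARG1 to ARG2 ratios lie above 0 and all others below, and the diets overlap in each pair.

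The enzymes also differed in how much they varied among animals of the same diet. The SD of log2 FPKM between animals of a diet was 0.0856 for GLUD1, at percentile 0.261 of all genes tested. With FPKM scaled between libraries this SD was 0.0973 (TMM) and 0.105 (median ratio). The percentile was not worked out on those scales. Over the 12 animals the highest GLUD1 value was 1.17-fold the lowest. ARG2 lay at the other end, with an SD of 0.76 at percentile 89.6 and a coefficient of variation of 51.0%, beside 5.71% for GLUD1. ARG1 had an SD of 0.43 (percentile 62), GLUL of 0.31 (percentile 39.8) and ASL of 0.26 (percentile 28.5). These percentiles do not allow for level, and low genes varied more, as the plot of spread against level shows.

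**Figure D5:**
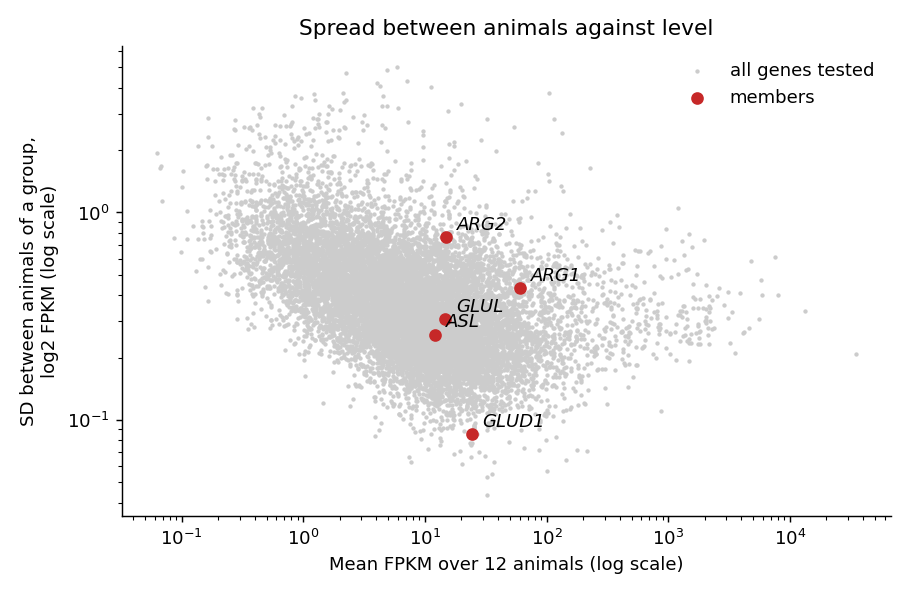
SD of log2 FPKM between animals of a diet group against mean FPKM, both on log axes, for the 12642 genes tested (grey) and the 5 enzymes (red). GLUD1 lies at the lower edge of the genes of its level (0.0856), while ARG2 (0.76) lies above most genes near its level.

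Across the 12 animals no pair among ASS1, ASL, ARG1, ARG2, GLUL and GLUD1 passed the adjustment over their 15 pairs. The strongest relation was between ARG2 and ASL, with Pearson r = -0.62 (permutation p = 0.0300, adjusted p = 0.449) and Spearman rho = -0.57 (permutation p = 0.0554). Their r was -0.73 within Control, -0.71 within Treated and -0.64 without the 2 animals farthest from the median of ARG2. ARG1 and ARG2 had the highest r, at 0.49 (permutation p = 0.104, adjusted p = 0.502; rho = 0.43, permutation p = 0.1604), with 0.71 within Control and 0.32 within Treated, but r was 0.26 without the 2 animals farthest from the median of ARG1.

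The 5 enzymes were also set against the mean log2 levels of the squamous epithelium, smooth muscle and endothelium markers, and none of these 15 relations passed the adjustment. ARG1 against the squamous score gave r = -0.59 (permutation p = 0.0418, adjusted p = 0.454) and rho = -0.43 (permutation p = 0.169). That relation rested on a few animals, since r was -0.23 without the 2 animals farthest from the median score. Within Control r was -0.32, and within Treated it was -0.78. ASL against the endothelium score gave r = 0.55 (permutation p = 0.0606, adjusted p = 0.454) and rho = 0.60 (permutation p = 0.0425, adjusted p = 0.506). Its r was 0.35 without the 2 farthest animals, 0.84 within Control and 0.39 within Treated. For ARG1 against the endothelium score r was -0.76 within Control and 0.62 within Treated. For GLUL against the squamous score r was -0.34, but -0.79 without the 2 farthest animals, -0.87 within Control and -0.03 within Treated. The part of the tissue mixture in the levels of the enzymes was not tested beyond these relations and a fit with a muscle and fibroblast score.

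The genes whose pattern over the 12 animals was most like each enzyme were named by Pearson r of log2 FPKM, as the highest 3 of all genes tested, and so carry no test. For ARG1 they were ATOX1, a copper chaperone (r = 0.944), OSTF1 (0.921) and PIGP (0.916). For ARG2 they were GK, glycerol kinase (0.934), PIK3AP1 (0.921) and HOMER2, a scaffold protein (0.916). ASL was most like COQ7, an enzyme of ubiquinone synthesis (0.93), MED19, a Mediator subunit (0.917), and KRTCAP3 (0.913). GLUL was most like REEP5 (0.928), TMTC4 (0.884) and UGP2, which makes UDP-glucose (0.871), and the closest genes of GLUD1 reached only 0.859 (S100PBP), 0.838 (LOC102414856) and 0.819 (ELOVL6, a fatty acid elongase).

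Genes around the cycle were taken from 3 lists. Together 48 of their genes were tested and 1 was called at the unadjusted threshold of 0.05 (2.08%, beside 1.24% of all genes). In the list of arginine, ornithine, proline and polyamine enzymes, 17 of 23 genes were tested, and 1 was higher and 0 were lower in Treated at that threshold by limma. That gene was SRM, spermidine synthase, at 3.02 ± 1.17 FPKM in Control and 4.40 ± 1.02 FPKM in Treated (SD, n = 6 each). Its log2 fold change was 0.60 (SE 0.25), and the adjusted p over all genes was 0.99965 (limma, Benjamini-Hochberg). The highest levels of the list were those of SAT1, which acetylates spermidine and spermine, at a mean of 119.6 FPKM, and AMD1, S-adenosylmethionine decarboxylase, at 38.0 FPKM. The median log2 fold change of the list was 0.0003.

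In the list of glutamate, glutamine and ammonia enzymes 17 of 21 genes were tested, 0 were called by limma at the unadjusted threshold, and the median log2 fold change was 0.10. The transaminases GOT2, the mitochondrial aspartate aminotransferase, and GPT2, the mitochondrial alanine aminotransferase, led it at 87.2 and 44.3 FPKM, each above GLUD1. In the list of urea, ammonia and amino acid carriers 14 of 24 genes were tested, 0 were called by limma at the unadjusted threshold, and the median was 0.06. AQP3, an aquaglyceroporin, and SLC38A2, a sodium-coupled carrier of neutral amino acids including glutamine, were highest at 195.7 and 147.9 FPKM.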

How the data were processed

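RNA-seq was available for the ruminal wall of 12 buffaloes, 6 per diet, grouped by the labels. The authors trimmed reads (Trimmomatic 0.39), aligned them to UOA_WB_1 (STAR 2.5.2b) and counted fragments by strand at mapping quality of at least 30 (featureCounts 2.0.0), so fragments placed equally well on near-identical copies were not counted; the tool that made the FPKM is not given in the sources used here. The deposited FPKM table held 16 columns of libraries, of which 12 matched the labels and 4 were not used. Whole reads were worked out from the FPKM steps for all 22972 genes above 0, and differed from the depth by at most 85 per library in sum. Genes whose TMM-scaled reads passed the threshold of the study in at least 1 animal (12642) were tested as log2(FPKM + 0.01) with limma 3.58.1 in R 4.3.3 (moderated with a trend, Benjamini-Hochberg over all genes), which was tested on simulated data. A fold change on that scale understates low genes. Single values used exact permutation over 924 assignments (smallest p 0.00216) or 4096 sign flips, and correlations used 100000 permutations, all two-sided (scipy 1.17.1). P-values set a difference, ratio or relation against the variation between these animals, which limma moderates with that of all genes tested.

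The text names the 9 enzymes, list genes called without adjustment, the 2 highest genes of each list, the 3 genes most like each enzyme and markers. The enzymes and lists were chosen with earlier results of these data known. Alternatives covered pseudocount, filter, scaling, moderation, voom, a replicate block, a tissue score and leaving out each animal. The annotation at hand was of another assembly, so coordinates and sequences are not reported here.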

Additional observations from a re-analysis of the deposited data

How the results depend on the processing

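In all 22 alternatives 0 enzymes were called by limma at the unadjusted threshold of 0.05, and 0 of all genes after adjustment. The number of all genes called without adjustment (157) was 562 with all genes above 0 tested, 301 with a filter of 0.1 FPKM in 6 animals, 363 with a smooth muscle and fibroblast score as covariate, and 142 to 325 when 1 animal was left out; the highest was without Treated replicate 6. Higher and lower genes (100 and 57) were 271 and 291 with all genes above 0, and 125 and 86 without Control replicate 3. The wider filters tested 22972 and 16450 genes in place of 12642, and the share of genes called was larger as well. The cause of these changes was not tested. With the replicate number as a block the number called was 322. Same-numbered animals did not all deviate together (mean r of 0.213, from -0.0134 to 0.416, over 0.1 in 4 of 6 pairs, beside a mean of -0.0394 and 5 of 30 for other pairs), and 8 of 12 animals correlated best with their own number. For ARG1 the deviations of same-numbered animals had r = 0.90, and the block took its SE from 0.22 to 0.096. This is a pattern of the data only, since the labels do not say what the numbers mean. The sample titles carry library numbers of their own, which differ within each same-numbered pair, and the study's methods describe no pairs. The block changed no call of an enzyme.

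Leaving out 1 animal gave log2 fold changes of -0.050 to 0.18 for ARG1 (below 0 without Control replicate 2 or Treated replicate 6), -0.080 to 0.32 for ARG2 (Control replicate 1 or 3, Treated 6), -0.040 to 0.14 for GLUL (Control 5, Treated 1 or 6) and -0.040 to 0.0034 for GLUD1 (above 0 without Control 2 or Treated 4), while ASL stayed at 0.067 to 0.24. The tissue score as covariate gave 0.30 for ARG1, 0.23 for ASL, 0.12 for GLUL, 0.075 for ARG2 and -0.015 for GLUD1. The difference in log2 ratio was -0.25 to 0.16 for ARG1 to ARG2, -0.016 to 0.149 for GLUL to GLUD1 and 0.15 to 0.56 for ASS1 to ASL, which was 0.048 with a pseudocount of 1. By medians in place of means 4 of 5 neighbouring pairs kept their order, ARG2 and GLUL being exchanged, and leaving out 1 animal gave 4 to 5. Depth limits OTC, CPS1 and NAGS, and at 7 to 39 reads ASS1 carries large counting error.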

Other observations

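Other genes around the cycle varied among animals as widely as ARG2 or as little as GLUD1. ODC1, ornithine decarboxylase, which uses the ornithine that arginase releases, had an SD of log2 FPKM between animals of a diet of 1.13, beside 0.68 for OAT, ornithine aminotransferase. GOT2 had an SD of 0.0909, close to that of GLUD1. The urea transporter SLC14A1 was at a mean of 29.4 FPKM in Control and 33.1 FPKM in Treated, with a log2 fold change of 0.04 (limma, adjusted p = 0.99965). The genes of this paragraph were chosen after their values were seen.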
